A study of Mus musculus with 13 samples.

Results

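This report describes 7 genes, of 23427 listed in the count tables, that mark layer 6b and the subplate in the mouse cortex: Ctgf, Cyr61, Cplx3, Nxph4, Moxd1, Inpp4b and Tmem163. The members were a fixed list, and all 7 were listed in both deposited tables. They were read in single cells picked by hand from the claustrum, a thin sheet of neurons beneath the insular cortex, of 4 mature male wild-type C57BL/6 mice. Of 1112 cells, 1011 held at least 1 count of Snap25 (a neuronal marker) and of Slc17a7 (the vesicular glutamate transporter of excitatory cortical neurons) and were kept.

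In 1 mouse, called here the blindly sampled mouse, rAAV2-retro-CAG-GFP injected into the anterior cingulate cortex guided the dissection and cells were picked without regard to GFP. In the other 3, called projection mice 1, 2 and 3, green retrobeads in the lateral entorhinal cortex (LEC) and red retrobeads in the retrosplenial cortex (RSC) guided the dissection and the choice of cells. Retrobeads are fluorescent beads that travel from axon endings to the soma, so that they label cells by their target. Kept cells numbered 238 in the blindly sampled mouse and 224, 220 and 329 in the projection mice, of which 247 were RSC-labeled, 286 LEC-labeled and 240 unlabeled. All mice had thus received a retrograde tracer, and an unlabeled cell may still have projected to either target.

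Layer 6b is the deepest sheet of the cortex and holds neurons that survive from the subplate, a transient layer that forms early and guides incoming axons. Its neurons lie directly against the claustrum, next to the corticothalamic neurons of layer 6a, which are marked by Sla (a Src-like adaptor) and Rprm (Reprimo). A hand dissection of the claustrum can therefore include both. Ctgf and Cyr61 encode secreted matrix proteins of the CCN family and are textbook targets of the YAP and TEAD transcriptional regulators. Nxph4 is a neurexophilin, a secreted ligand of neurexins. Cplx3 is a complexin, which binds the SNARE complex at synaptic vesicles. Moxd1 resembles the copper monooxygenases, Inpp4b removes a phosphate from inositol lipids, and Tmem163 is a zinc-binding protein of synaptic vesicles.

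Upstream sequences are shown for Cyr61 and Cplx3 because both rose in the cells rich in Ctgf (below), although they were otherwise distributed differently. RefSeq rows were found for 5 of the 7 members, and none was used for Ctgf or Nxph4. Each run holds the 250 bases before the annotated start, 5′ to 3′ on the gene's strand, in GRCm38.p6. Capitals mark CATTCC, the core of TEAD sites, TATAAA, or CACGTG, an E-box, each searched on both strands. None of these matches overlapped another.
Cyr61 (Ccn1), chr3:145649986-145650235, minus strand: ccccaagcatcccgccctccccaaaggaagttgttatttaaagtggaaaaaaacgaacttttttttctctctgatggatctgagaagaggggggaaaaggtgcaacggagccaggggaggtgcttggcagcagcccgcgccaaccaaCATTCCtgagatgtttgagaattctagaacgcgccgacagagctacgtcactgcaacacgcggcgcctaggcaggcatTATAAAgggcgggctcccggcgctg
Cplx3, chr9:57606282-57606531, minus strand: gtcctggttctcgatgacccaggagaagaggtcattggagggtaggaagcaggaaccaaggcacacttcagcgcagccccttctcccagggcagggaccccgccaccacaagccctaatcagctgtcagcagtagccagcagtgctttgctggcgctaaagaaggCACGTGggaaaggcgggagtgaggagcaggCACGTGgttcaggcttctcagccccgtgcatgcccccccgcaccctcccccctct
In Cyr61 the CATTCC lay 103 bases and the TATAAA 25 bases before the start. In Cplx3 the E-boxes lay 85 and 55 bases before it. Over 32851 RefSeq promoters of the same length, 12.6% held CATTCC, 12.4% TATAAA and 6.02% CACGTG, and a match is a description of letters only. Moxd1 and Ctgf are neighbours on chromosome 10 in that annotation, with 4 listed genes between them, of which 3 are lncRNAs, 1 is a pseudogene and 0 code for protein.

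Depth differed between the mice. Kept cells had a median of 26023 counts in the blindly sampled mouse, against 154261.5, 138535 and 152832 in projection mice 1, 2 and 3. The former filled 3 plates and the others 10. The methods state that 3 plates and the remaining 10 were run on separate flow cells without naming them, so the flow cell of each mouse is inferred from these numbers. Depth, sampling scheme and mouse cannot be told apart there. A count was taken as a read, of which several can come from 1 molecule, so the exact (Clopper-Pearson) 95% intervals given here cover counting error only. All 96 wells were used on more than 1 plate, so that plates may share cell barcodes. Levels are CPM (counts of a gene as a share of all counts, scaled in the usual way) of the summed counts of a group of cells. They are compared between groups for 1 gene and not between genes.

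Of the kept cells, 378 (37.4%) held no count of any member. Tmem163 was the most widespread, with counts in 404 cells, followed by Inpp4b in 163, Cplx3 in 97, Ctgf in 91, Cyr61 in 76, Nxph4 in 40 and Moxd1 in 23. Most Nxph4 cells (25 of 40) and Moxd1 cells (15 of 23) came from the blindly sampled mouse, although its cells were the shallowest. The 20 cells with the most Moxd1 held 98.3% of its summed CPM, against 17.0% for Tmem163. Moxd1 was thus read from few cells and Tmem163 from many. Ctgf shares exon bases with the antisense gene Gm15270 and Tmem163 with Mgat5, and reads of each pair cannot be told apart where they overlap.

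Across mice, Ctgf stood at 42.3 CPM in the blindly sampled mouse and at 4.87, 4.90 and 4.70 CPM in projection mice 1, 2 and 3. Nxph4 stood at 14.6 CPM against 0.41, 1.17 and 0.11 CPM, and Cplx3 at 225 CPM against 13.6, 52.4 and 6.27 CPM. Moxd1 stood at 10.4 CPM against 3.25, 2.29 and 0.66 CPM. For these 4 genes the blindly sampled mouse was above each projection mouse. So it was for Cyr61, with 12.2 CPM there and 3.14, 7.37 and 5.46 CPM in the others. Inpp4b gave 9.08 CPM against 10.7, 23.8 and 14.7 CPM, the lowest of the 4 mice, and Tmem163 gave 43.0, 45.6, 43.0 and 39.6 CPM, nearly level. The projection levels include cells picked for their label. Against unlabeled cells alone (levels below), the blindly sampled mouse stayed highest for Ctgf and Cplx3. It also did for Nxph4, which passed 6.40 CPM in no cluster (below) of unlabeled cells of a projection mouse. Moxd1 was higher in the unlabeled cells of projection mouse 1, and Cyr61 lay on both sides of the blindly sampled mouse. With 1 mouse on one side, these differences had no replicate check and were not tested.

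Shares of cells were compared after each cell was thinned to 20000 counts, with the projection cells of all labels pooled. Shallower cells, 67 blindly sampled and 17 from the projection mice, were set aside. Ctgf was then found in 14.0% of the blindly sampled cells and in 3.17% of the projection cells, where the unthinned shares were 11.8% and 8.15%. Nxph4 was found in 11.7% against 0.79%, Cplx3 in 15.2% against 5.82%, and Moxd1 in 5.85% against 0.79%. Cyr61 (7.60% against 4.23%), Inpp4b (7.60% against 11.6%) and Tmem163 (62 of 171 cells against 227 of 756) lay closer together.

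The question of the projection labels is whether cells that reach the RSC or the LEC differ in these genes. Counts were summed per mouse and label and tested with edgeR. Inpp4b, which was called, and Tmem163, which was not, lay on opposite sides of the labels without overlap (the plot of levels by label). For Ctgf, not called either, each RSC sum also lay above each LEC sum, and the remaining members varied between mice. How many of all genes tested separate the labels without overlap was not counted. The lack of overlap is therefore a description and does not set these members apart from other genes.

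**Figure D1:**
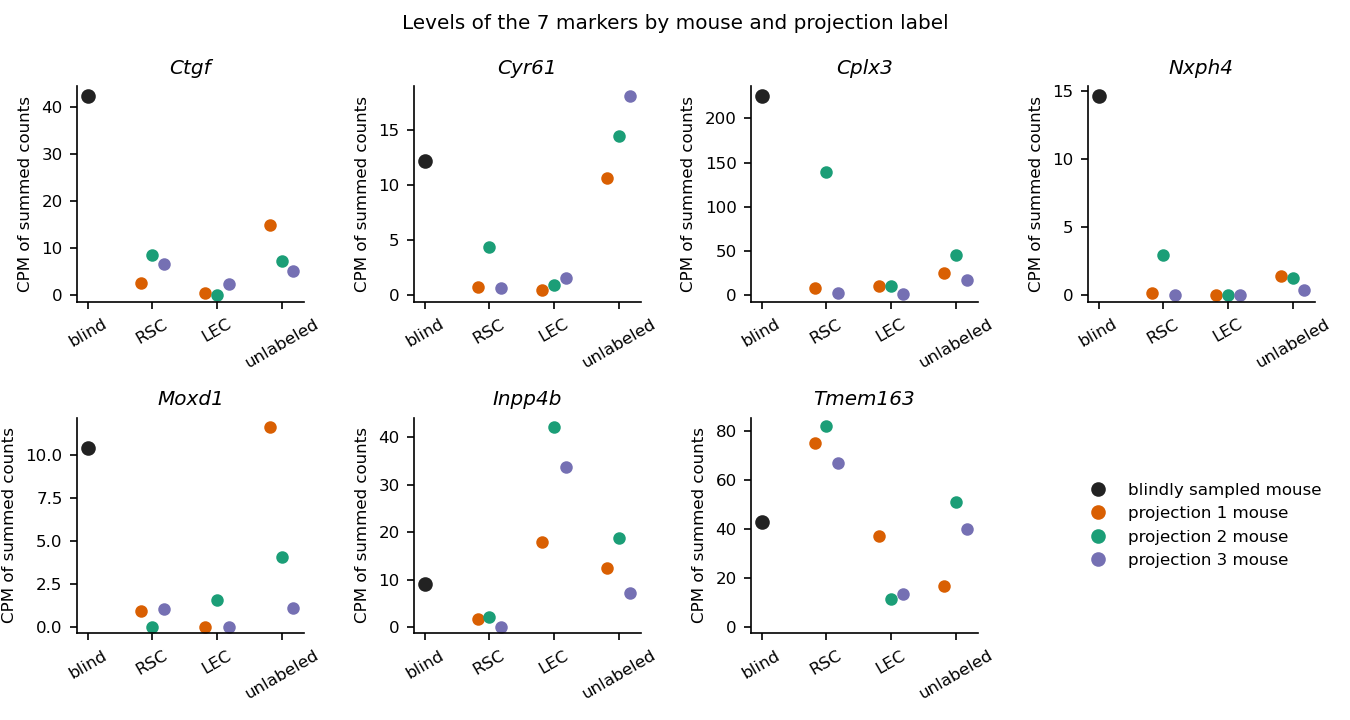
CPM of the summed counts of each marker (vertical axes, linear) in the blindly sampled mouse (1 point) and in the RSC-labeled, LEC-labeled and unlabeled cells of projection mice 1 to 3 (1 point each, colored by mouse). Inpp4b was 17.9 CPM or more in each LEC sum and 1.98 CPM or less in each RSC sum, and Tmem163 was 66.8 CPM or more in each RSC sum and 37.1 CPM or less in each LEC sum.

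Inpp4b, the lipid phosphatase, gave 17.9, 42.1 and 33.7 CPM in the LEC-labeled cells of projection mice 1, 2 and 3. In RSC-labeled cells it gave 1.68, 1.98 and 0 CPM, and in unlabeled cells 12.4, 18.7 and 7.22 CPM. Each LEC sum lay above each RSC sum and above the unlabeled sum of its own mouse. The log2 fold change, RSC minus LEC, was -4.78 (SE 0.91, edgeR adjusted p = 0.0152), and Inpp4b was the 1 member called. Of 13976 genes tested in this comparison 3.95% were called, and 2.06% were called lower in RSC-labeled cells. The call was lost without projection mouse 1 (adjusted p = 0.0548) or projection mouse 2 (adjusted p = 0.15), with the direction kept. Cells with at least 1 count of Inpp4b made up 32.9% of LEC-labeled cells (94 of 286), 3.24% of RSC-labeled cells (8 of 247) and 38 of 240 unlabeled cells.

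Tmem163, the vesicle zinc-binding protein, ran the opposite way. RSC-labeled cells gave 75.2, 82.0 and 66.8 CPM, LEC-labeled cells 37.1, 11.4 and 13.4 CPM, and unlabeled cells 16.9, 51.1 and 40.2 CPM. The RSC sums lay above all other sums of the projection mice. The log2 fold change of 1.89 (SE 0.47) had an edgeR adjusted p of 0.0510 and missed the threshold of 0.05. It passed without projection mouse 1 (adjusted p = 0.0039), whose LEC-labeled cells were the highest of their group, with cells thinned to 20000 counts (adjusted p = 0.000614) and in DESeq2 (adjusted p = 0.000141). Counts of Tmem163 were found in 186 of 247 RSC-labeled cells (75.3%) and in 56 of 286 LEC-labeled cells (19.6%).

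Label and plate went together in each projection mouse, except on plate 12 of projection mouse 3, which held 34 RSC-labeled and 44 LEC-labeled cells. There Tmem163 was found in 23 RSC-labeled cells (67.6%, 95% interval 49.5 to 82.6) and in 9 LEC-labeled cells (20.5%, 9.80 to 35.3), at 68.2 and 15.3 CPM. Inpp4b was found in 0 RSC-labeled cells, a share of up to 10.3%, and in 17 LEC-labeled cells (38.6%, 24.4 to 54.5) at 35.8 CPM. On this 1 plate both genes thus differed between the labels in the direction seen over the mice.

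Ctgf gave 2.67, 8.5 and 6.70 CPM in RSC-labeled cells, 0.48, 0 and 2.49 CPM in LEC-labeled cells and 14.8, 7.38 and 5.15 CPM in unlabeled cells. The RSC sum exceeded the LEC sum in all 3 mice, but the log2 fold change of 2.56 (SE 1.02) did not pass (edgeR adjusted p = 0.231). Ctgf was found in 39 of 247 RSC-labeled cells (15.8%), 6 of 286 LEC-labeled cells (2.10%) and 18 of 240 unlabeled cells. With cells thinned to 20000 counts the first 2 shares were 6.72% and 0.36%.

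Cplx3 gave 7.85, 139 and 3.07 CPM in RSC-labeled cells and 10.9, 10.7 and 1.72 CPM in LEC-labeled cells. A single sum, that of projection mouse 2, set the RSC level. The log2 fold change of 2.72 (SE 1.17, edgeR adjusted p = 0.275) became -0.18 without that mouse. With thinned cells it passed (adjusted p = 0.0473). In unlabeled cells Cplx3 gave 25.7, 45.0 and 17.6 CPM.

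Cyr61 was higher in each unlabeled sum (10.6, 14.5 and 18.1 CPM) than in each RSC sum (0.76, 4.39 and 0.65 CPM) or LEC sum (0.48, 0.98 and 1.58 CPM). The log2 fold change was -2.93 (SE 0.77, edgeR adjusted p = 0.0969) for RSC against unlabeled and -3.81 (SE 0.79, adjusted p = 0.265) for LEC against unlabeled, and neither passed. DESeq2 called both (adjusted p = 0.0032 and 0.000247), as did edgeR with thinned cells (adjusted p = 0.0151 and 0.0171). The background in these comparisons was 1.63% and 0% of 13976 genes called. For LEC against unlabeled, edgeR called 0 genes (2 with the mouse as a block), 1079 had an unadjusted p under 0.05, and DESeq2 called 114.

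Nxph4 had no count in LEC-labeled cells of any mouse and gave 0.15, 2.98 and 0 CPM in RSC-labeled cells. Pooled over the mice, its 23 counts there made it at least 9.12-fold higher (floor of 3 counts over the LEC group). Such bounds, here and below, need not hold for each mouse, and they treat counts as separate although several can come from 1 molecule. Moxd1 gave 0.91, 0 and 1.06 CPM in RSC-labeled cells, 0, 1.55 and 0 CPM in LEC-labeled cells and 11.6, 4.08 and 1.07 CPM in unlabeled cells. Neither passed a test between labels. Markers of the core and shell of the claustrum went with the labels. All 8 core markers tested, among them Synpr, were higher and all 6 shell markers tested, among them Slc30a3, were lower in RSC-labeled than in LEC-labeled cells. Of all 13976 genes tested 3.95% were called. The paper chose several of these markers, namely Gfra1, Slc30a3, Nnat and Spon1, from these same cells. Their direction is therefore a description of the labels and not an independent test.

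Clusters were then made without the 7 members, to see which cells held them. As the clusters come from other genes of the same cells, their levels are a description with no test. Cluster 1 (433 cells) was core-like, led by Synpr, and Cluster 2 (462 cells) was shell-like, led by Slc30a3. Cluster 3 (116 cells, 32 of them blindly sampled and 36, 22 and 26 of projection mice 1, 2 and 3) had the highest level of the layer 6a list and was led by Rprm. The members were spread differently over these clusters (the plot of cells by cluster).

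**Figure D2:**
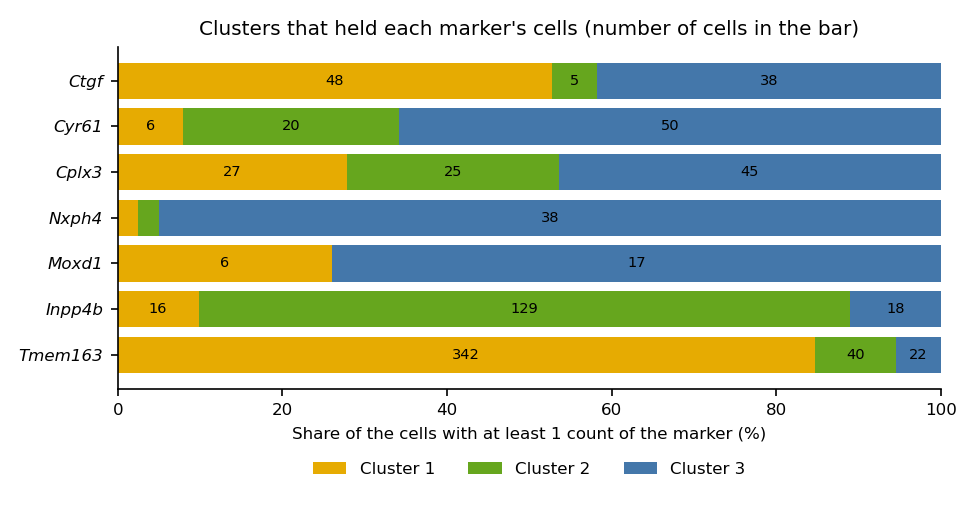
Share of the cells with at least 1 count of each marker (horizontal axis, percent) that fell in Clusters 1, 2 and 3, with the number of cells printed in each bar segment over 4%. Cluster 3 held 38 of the 40 Nxph4 cells, Cluster 1 held 342 of the 404 Tmem163 cells and Cluster 2 held 129 of the 163 Inpp4b cells.

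Tmem163 was a gene of Cluster 1. It was found in 342 of its 433 cells (79.0%) and in 40 of 462 cells of Cluster 2, and gave 78.7, 90.4, 93.6 and 75.1 CPM in Cluster 1 of the blindly sampled mouse and of projection mice 1, 2 and 3. Within Cluster 1 its shares were close, with counts in 83.8% of RSC-labeled cells (80.3 CPM), 86.7% of LEC-labeled cells (90.4 CPM) and 86.6% of unlabeled cells (89.1 CPM). Of the RSC-labeled cells 85.0% lay in Cluster 1, and of the LEC-labeled cells 82.9% lay in Cluster 2.

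Inpp4b was found mainly in Cluster 2, in 129 of 462 cells (27.9%) against 16 of 433 in Cluster 1 and 18 of 116 in Cluster 3. Its level there was 6.60 CPM in the blindly sampled mouse and 20.2, 42.7 and 32.5 CPM in projection mice 1, 2 and 3. Among Cluster 2 cells it was found in 92 of 237 LEC-labeled cells (38.8%), 29 of 102 unlabeled cells (28.4%) and 1 of 28 RSC-labeled cells (3.57%). Tmem163 in Cluster 2 was found in 8 of 28 RSC-labeled cells (28.6%, 10.9 CPM) and 17 of 237 LEC-labeled cells (7.17%, 1.19 CPM). Within Cluster 2 the shares of both genes thus differed between RSC-labeled and LEC-labeled cells in opposite directions, as a description of few RSC-labeled cells.

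Nxph4, Moxd1 and Cyr61 had most of their cells in Cluster 3, with 38 of 40, 17 of 23 and 50 of 76. The cluster held 71 of 240 unlabeled cells (29.6%), 9 of 247 RSC-labeled cells (3.64%) and 4 of 286 LEC-labeled cells (1.40%). Cyr61 in that cluster gave 65.0 CPM in the blindly sampled mouse and 24.5, 73.0 and 59.8 CPM in projection mice 1, 2 and 3. Ctgf ran from 260 CPM in the blindly sampled mouse to 34.7, 48.5 and 18.6 CPM, and Nxph4 from 91.2 CPM to 3.3, 12.1 and 1.77 CPM. Cplx3 ran from 1387 CPM to 64.0, 495 and 40.9 CPM, and Moxd1 from 64.2 CPM to 27.3, 18.2 and 2.06 CPM. Inpp4b ran from 32.9 CPM to 19.4, 6.70 and 0 CPM, and Tmem163 from 43.9 CPM to 6.37, 11.2 and 0 CPM. The blindly sampled mouse was thus highest in this cluster for every member except Cyr61, for which projection mouse 2 was.

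Cplx3 and Ctgf were spread more widely. Cluster 3 held 45 Cplx3 cells, Cluster 1 held 27 and Cluster 2 held 25, but their median level was 953 CPM in Cluster 3 and 38.4 and 53.0 CPM in Clusters 1 and 2. Of the Ctgf cells, 48 were in Cluster 1 at a median of 19.1 CPM, 38 in Cluster 3 at 217 CPM and 5 in Cluster 2 at 18.9 CPM. Of the 48 Ctgf cells of Cluster 1, 30 came from projection mouse 3. In Cluster 1 Ctgf was found in 16.2% of RSC-labeled cells (34 of 210) and 11.1% of LEC-labeled cells (5 of 45). Ctgf was thus read at a low level in core-like cells and at a higher one in Cluster 3.

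Cells rich in Ctgf were defined as those with at least 100 CPM, which 33 cells met. Since Ctgf chose them, its level in them is a description. The 3 cells just inside the limit had 102, 103 and 104 CPM, and the 3 just outside 83.6, 74.4 and 72.7 CPM. The blindly sampled mouse held 22 of the 33 (9.24% of its cells, 95% interval 5.88 to 13.7). Projection mice 1, 2 and 3 held 1, 5 and 5 (0.446%, 2.27% and 1.52%). A limit of 50 CPM gave 24, 2, 6 and 9 cells and a limit of 200 CPM gave 16, 1, 2 and 1, so the blindly sampled mouse held most of the cells at each limit. Within that mouse, the 3 plates held 1, 9 and 12 of them among 79, 76 and 83 cells. Cluster 3 held 29 of the Ctgf-rich cells, Cluster 1 held 3 and Cluster 2 held 1.

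**Figure D3:**
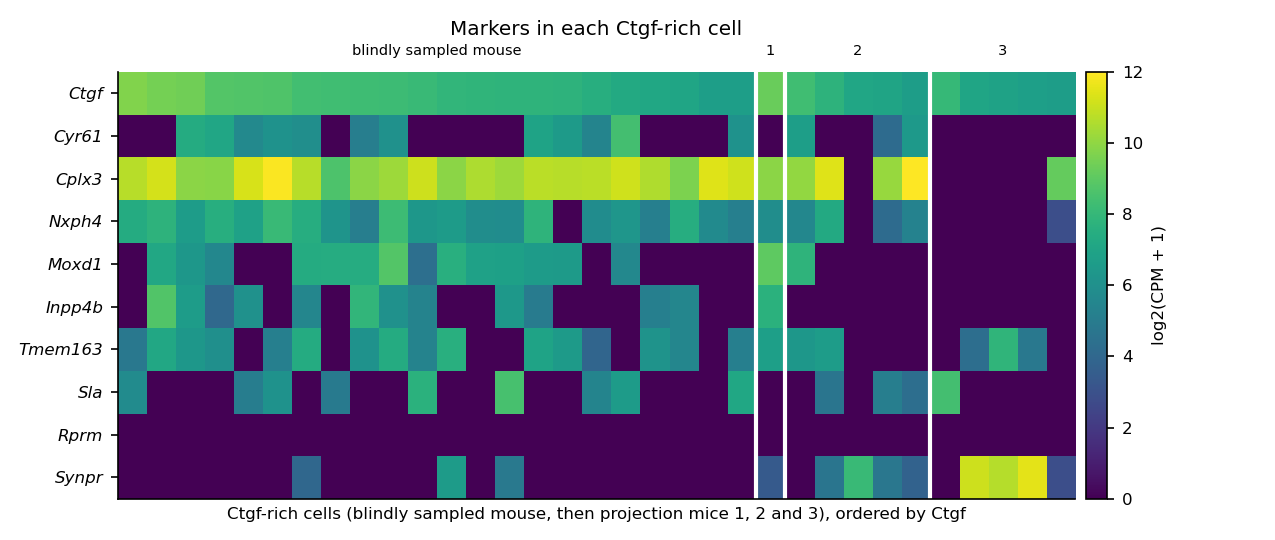
Levels of the 7 markers, Sla, Rprm and Synpr (rows) in each of the 33 Ctgf-rich cells (columns, by mouse and then by falling Ctgf), as log2(CPM + 1) on the color scale. Cplx3 was present in all 22 cells of the blindly sampled mouse, Rprm was at 0 in all 33 cells, and 3 of the 5 cells of projection mouse 3 had 1614 to 2864 CPM of Synpr and no Cplx3.

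In the 22 Ctgf-rich cells of the blindly sampled mouse, Cplx3 was present in all 22, at 405 to 3854 CPM (median 1661). Nxph4 was present in 21, with a highest level of 302 CPM, and Moxd1 in 14. Cyr61 and Inpp4b were each present in 12, Tmem163 in 16 and Sla in 9. These cells shared a set of markers, with 6 of them holding all 7 members, the only kept cells that did.

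The 11 Ctgf-rich cells of the projection mice were of several kinds. The single cell of projection mouse 1 was unlabeled and held 603 CPM of Ctgf, 953 of Cplx3, 57.4 of Nxph4 and 512 of Moxd1. It also held 201 CPM of Inpp4b and 110 of Tmem163, and no Cyr61. In projection mouse 2, 3 RSC-labeled cells of 1 plate held 1124 to 3980 CPM of Cplx3 together with Nxph4 and Sla, and an unlabeled cell held 1062 CPM of Cplx3 and 220 of Moxd1. Those 3 cells lay in Cluster 3 and carried the high RSC level of Cplx3 in that mouse.

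The other 6 lacked most members. Of these, 4 held 275 to 2864 CPM of Synpr and no Cyr61, Cplx3, Nxph4, Moxd1, Inpp4b, Sla or Rprm. In 1 of the 4, a cell with 7268 counts in all, 1 count of Ctgf was enough to pass the limit. An LEC-labeled cell of projection mouse 3 held 263 CPM of Ctgf and 336 of Sla and no other member, and an unlabeled cell of that mouse held 573 CPM of Cplx3 and 6.37 of Nxph4.

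Counts were summed per mouse in 3 groups that do not overlap: Ctgf-rich cells, cells with at least 1 count of Sla or Rprm that were not Ctgf-rich, and cells with neither. Sums of fewer than 3 cells were left out, which dropped the Ctgf-rich cell of projection mouse 1, so 3 mice gave Ctgf-rich sums and 4 gave the others. Against cells with neither, Cplx3, Nxph4 and Cyr61 rose in Ctgf-rich cells and Tmem163 and Inpp4b were not called (the plot of levels by cell group). Of 12352 genes tested 1.29% were called, and 0.615% were called higher in Ctgf-rich cells. The median log2 fold change of all genes was -0.11. With all Ctgf cells from 1 count up taken as the first group, none of the 3 passed (edgeR adjusted p = 0.0526 for Cplx3, 0.078 for Nxph4 and 0.107 for Cyr61). Cells with neither lack Sla and Rprm by definition, whereas 13 of the 33 Ctgf-rich cells held Sla. This sorting lowers the reference most for members that share cells with Sla or Rprm. Those were Nxph4 (62.5% of its cells) and Cyr61 (56.6%), against Inpp4b (12.3%) and Tmem163 (6.93%). How far the rise depends on the sorting was not tested, and no member was called against cells with Sla or Rprm (below).

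**Figure D4:**
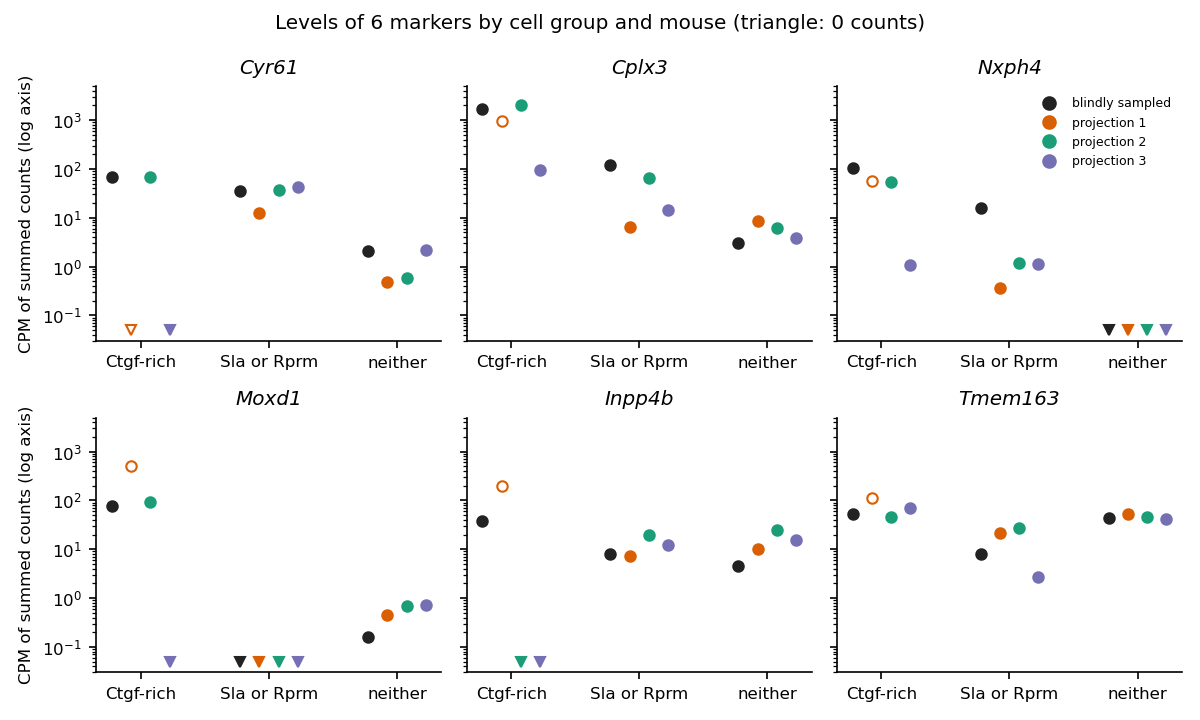
CPM of the summed counts (vertical log axes) of 6 markers in Ctgf-rich cells, cells with Sla or Rprm, and cells with neither, 1 point per mouse. Triangles at the foot of an axis mark sums of 0 counts and open symbols the single cell of projection mouse 1, left out of the test. Cplx3 lay between 95.3 and 2010 CPM in Ctgf-rich cells and at 8.76 CPM or less in cells with neither. Moxd1 was at 0 in all 4 sums of cells with Sla or Rprm, a group that excludes Ctgf-rich cells.

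Cplx3 gave 1658, 2010 and 95.3 CPM in the Ctgf-rich cells of the blindly sampled mouse and of projection mice 2 and 3. In cells with neither it gave 3.09, 8.76, 6.03 and 3.81 CPM in the 4 mice. The sums did not overlap, and the log2 fold change was 7.83 (SE 1.09, edgeR adjusted p = 0.0046). Without projection mouse 2 the call was lost (adjusted p = 0.106), as with cells thinned to 20000 counts (adjusted p = 0.0692).

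Nxph4 gave 107, 53.2 and 1.06 CPM in Ctgf-rich cells and 0 in all 4 sums of cells with neither. Its 138 counts, pooled over the mice, made it at least 2022-fold higher (floor of 3 counts over the group, edgeR adjusted p = 0.0132). That bound is not one for each mouse, and the 0 goes in part with the sorting of cells with Sla or Rprm out of that group. Leaving out projection mouse 1 or 2 ended the call (adjusted p = 0.0757 and 0.163), and without the blindly sampled mouse it did not pass the filter on low counts.

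Cyr61, the second CCN gene, gave 70.0 and 69.3 CPM in the Ctgf-rich cells of the blindly sampled mouse and of projection mouse 2, and 0 CPM in those of projection mouse 3. Cells with neither gave 2.11, 0.49, 0.58 and 2.21 CPM. The log2 fold change was 5.12 (SE 1.08, edgeR adjusted p = 0.0368), although the sum of projection mouse 3 lay below the 4 sums of the other group. The mouse as a block ended the call (adjusted p = 0.129), as did leaving out the blindly sampled mouse or projection mouse 1 or 2 (adjusted p = 0.0839, 0.181 and 0.306).

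Tmem163 gave 53.5, 46.7 and 70.9 CPM in Ctgf-rich cells and 42.7, 52.0, 45.9 and 42.4 CPM in cells with neither, with overlapping sums (log2 fold change 0.32, SE 0.56, edgeR adjusted p = 0.858). Inpp4b gave 38.1, 0 and 0 CPM in Ctgf-rich cells and 4.55, 10.3, 25.1 and 15.2 CPM in cells with neither (log2 fold change -0.01, SE 1.12, edgeR adjusted p = 0.998). Without the blindly sampled mouse, which held all its counts in the Ctgf-rich sums, it was called lower (edgeR adjusted p = 0.0401). The single Ctgf-rich cell of projection mouse 1, left out of the sums, held 201 CPM of Inpp4b. The 0 thus does not cover all projection mice. Moxd1 gave 78.2, 91.9 and 0 CPM and did not pass the filter on low counts. Without the filter its log2 fold change was 6.67 (edgeR adjusted p = 0.00372).

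Other genes of the layer were read from a list of 15, of which 14 were in the tables and 12 were tested. Against cells with neither, 5 rose and 0 fell in Ctgf-rich cells: Svil (supervillin, an actin-binding protein), Trh (thyrotropin-releasing hormone), Nxph3, Kcnab1 (a potassium channel beta subunit) and Pls3. The median log2 fold change of the list was 1.24. Of 8 layer 6a genes tested, 5 also rose, namely Fezf2, Foxp2, Lsp1, Pitpnc1 and Tle4, with a median of 4.09. The reference had been sorted to hold no cell with Sla or Rprm. Without projection mouse 2 none of these 10 calls held (edgeR adjusted p from 0.0575 for Svil, Pitpnc1 and Tle4 to 0.304 for Kcnab1). Without projection mouse 1 the calls of Fezf2, Lsp1, Nxph3, Kcnab1 and Pls3 were lost (adjusted p = 0.0991, 0.0503, 0.0679, 0.127 and 0.144) and Trh was not tested. Kcnab1 and Trh were also lost without the blindly sampled mouse (adjusted p = 0.0642 and 0.062) and when mouse was fitted as a block (0.0716 and 0.0621).

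The comparison with layer 6a asked which members separate the groups when cells with neither are set aside. Of 12352 genes 0.316% were called (4 higher and 35 lower in Ctgf-rich cells, where DESeq2 called 177 and 384 and edgeR with the mouse as a block 6 in all). No member was among the 39 called by edgeR, of 1725 genes with an unadjusted p under 0.05. Cplx3 gave 122, 6.32, 64.3 and 14.6 CPM in cells with Sla or Rprm of the blindly sampled mouse and projection mice 1, 2 and 3. Its log2 fold change of 4.87 (SE 0.99) had an edgeR adjusted p of 0.0685, and passed without projection mouse 3 (adjusted p = 0.0389), without the filter (adjusted p = 0.0056) and in DESeq2 (adjusted p = 0.00157). Nxph4 gave 15.7, 0.36, 1.17 and 1.12 CPM in cells with Sla or Rprm (log2 fold change 4.92, SE 1.52, edgeR adjusted p = 0.2). Moxd1 was at 0 in all 4 sums of cells with Sla or Rprm and had 133 counts in Ctgf-rich cells, at least 316-fold higher in counts pooled over the mice. The former group excludes Ctgf-rich cells, and the 4 Moxd1 cells that held Sla were all Ctgf-rich. The 0 thus goes with how the cells were sorted, and in projection mouse 3 both groups had 0.

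Cyr61 gave 35.4, 12.4, 36.4 and 42.6 CPM in cells with Sla or Rprm, below the Ctgf-rich sum in the blindly sampled mouse and in projection mouse 2 and above it in projection mouse 3 (log2 fold change, Ctgf-rich minus Sla or Rprm, 0.58, SE 0.97, edgeR adjusted p = 0.844). Cells with Sla or Rprm lay above cells with neither for Cyr61 in each of the 4 mice, by a log2 fold change of 4.54 (SE 1.03), which did not pass (edgeR adjusted p = 0.215), but did with thinned cells (adjusted p = 0.000397) and in DESeq2 (adjusted p = 0.000222). In that comparison 15 genes, 0.121% of 12352, were called, all higher (DESeq2 called 102 higher and 18 lower). Foxp2, Lsp1, Pitpnc1 and Tle4 of the 8 layer 6a genes tested were among them and no member was. Foxp2 kept its call whichever mouse was left out (highest edgeR adjusted p = 0.0347). Lsp1, Pitpnc1 and Tle4 lost theirs without the blindly sampled mouse (adjusted p = 0.0706, 0.209 and 0.209), projection mouse 1 (0.114, 0.0824 and 0.604) or projection mouse 2 (0.225, 0.241 and 0.248). Pitpnc1 and Tle4 also lost it without projection mouse 3 (0.0708 and 0.153), and Tle4 with the mouse as a block (0.0592).

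By size, the genes higher in Ctgf-rich than in Sla or Rprm cells were Svil, Lgals3bp (a secreted glycoprotein), Rnd2 and Kcnab1. Svil gave 44.2, 77.4 and 67.7 CPM in Ctgf-rich cells and 0, 0, 0.39 and 0 CPM in the other group (log2 fold change 8.96, SE 1.19, edgeR adjusted p = 0.00858). The other 3 had log2 fold changes of 4.94, 4.10 and 3.52. Plekhb1, Wscd1, Plekha2, Kcns1 (a potassium channel subunit) and Slc41a2 (a magnesium transporter) led the genes that fell and had no count in the Ctgf-rich sums. In counts pooled over the mice they were at least 62.7-, 37.5-, 16.3-, 17.8- and 19.2-fold lower. With the mouse as a block none of these 9 genes passed (edgeR adjusted p from 0.0603 for Svil to 0.125 for Lgals3bp and Rnd2). None passed without projection mouse 1 (adjusted p from 0.117 for Wscd1 to 0.285 for Kcnab1) or projection mouse 2 (from 0.155 for Svil, Kcns1 and Slc41a2 to 0.257 for Kcnab1 and Plekhb1). Lgals3bp, Plekha2 and Plekhb1 were lost without projection mouse 3 (adjusted p = 0.0939, 0.056 and 0.134), and Kcnab1 and Plekha2 without the blindly sampled mouse (0.0622 and 0.0555).

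These comparisons rested on few cells. Without the 4 Ctgf-rich cells that had at least 100 CPM of Synpr, chosen after seeing the data, projection mouse 3 had too few cells for a sum. The calls between Ctgf-rich and Sla or Rprm cells then went from 39 to 270. As the cells left out held no Cplx3, Nxph4 or Moxd1, the levels of these genes in the group had to be higher without them, and nothing is read from their values there. The summed level of the 8 core markers ran from 598 to 5845 CPM over the 3 Ctgf-rich sums and from 845 to 2549 CPM over the Sla or Rprm sums, and its part in the result was not tested.

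Most markers of other cell types were low or at 0 in Ctgf-rich cells, and endothelial Flt1 was an exception. These sums were small, with 3 counts over the group equal to 1.18 CPM. A 0 there says little about genes that were lower than this elsewhere. In cells with neither the sums reached 97.5 CPM for inhibitory, 485 for oligodendrocyte, 3.26 for astrocyte and 1.44 for microglial genes. Of 6 mural and fibroblast genes 5 were at 0 (Pdgfrb, Rgs5, Dcn, Lum and Col1a1) and the summed level ran from 0 to 19.1 CPM, against 3.41 to 49.5 CPM in cells with neither. Of 3 endothelial genes Pecam1 and Ly6c1 were at 0, and Flt1 took the sum to 0 to 32.2 CPM, against 0.07 to 0.16 CPM in cells with neither. Of 5 inhibitory genes 1 had counts (0 to 8.06 CPM in sum, with Gad1, Gad2, Slc32a1 and Pvalb at 0), of 5 oligodendrocyte genes 2 (0 to 17.7 CPM, Mog and Mag at 0), and of 5 astrocyte and 5 microglial genes 1 each (0 to 1.61 CPM, Aqp4, Gfap, C1qa and Csf1r at 0). The summed level of 9 immediate early genes, of which none was called, ran from 408 to 3773 CPM in Ctgf-rich cells and from 430 to 1078 CPM in cells with neither. The part of these genes in the results was not tested.

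Co-detection was counted per cell. Of the 40 Nxph4 cells, 35 (87.5%) also held Cplx3 and 30 (75%) held Ctgf, and of the 23 Moxd1 cells 17 held Ctgf and 16 held Cplx3. Of the 91 Ctgf cells 32 (35.2%) held Cplx3, and this share was 82.1% in the blindly sampled mouse (23 of 28) and 14.3% in the projection mice (9 of 63). Nxph4 cells held Cplx3 in 22 of 25 cases in the blindly sampled mouse and in 13 of 15 in the projection mice. The pairing of Ctgf with Cplx3 thus differed between them and that of Nxph4 with Cplx3 was near the same.

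Ctgf, Cplx3, Nxph4 and Moxd1 were also taken as 1 set. The set was chosen with results of these cells known, so its counts are a description only. Cells of the blindly sampled mouse held none or 1 of the 4 genes, or at least 3. In the blindly sampled mouse 197 cells held none, 18 held 1, 0 held 2, 10 held 3 and 13 held 4. In projection mice 1, 2 and 3 the cells with 2 of the genes numbered 0, 3 and 4, and those with at least 3 numbered 1, 6 and 1. The gap at 2 genes was thus not seen in projection mouse 3. The 31 cells with at least 3 were thus 23 from the blindly sampled mouse and 8 from the others, of which 3 were RSC-labeled, 0 LEC-labeled and 5 unlabeled. Among the 31, Tmem163 was found in 20, Cyr61 in 17, Inpp4b in 15, Sla in 15 and Rprm in 0.

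Sla or Rprm were found in 147 cells, 73 with Sla, 118 with Rprm and 44 with both. The members differed in how far they shared cells with them (the plot of cells that also held Sla or Rprm). Of Nxph4 cells 62.5% (25 of 40, 95% interval 45.8 to 77.3) and of Cyr61 cells 56.6% (43 of 76, 44.7 to 67.9) held Sla or Rprm. The shares were 33.0% for Cplx3 (32 of 97), 29.7% for Ctgf (27 of 91), 17.4% for Moxd1 (4 of 23), 12.3% for Inpp4b (20 of 163) and 6.93% for Tmem163 (28 of 404). These shares pool mice that differed. Ctgf cells held Sla or Rprm in 39.3% of blindly sampled cases (11 of 28) and in 36.8%, 58.3% and 6.25% in projection mice 1, 2 and 3 (7 of 19, 7 of 12 and 2 of 32). Moxd1 cells did in 26.7% (4 of 15), and in 0 of 3, 0 of 2 and 0 of 3 cases in the projection mice. Over the 4 mice the shares ran from 45.0% to 70% for Cyr61, 52.0% to 88.9% for Nxph4, 23.1% to 40% for Cplx3, 7.55% to 17.4% for Inpp4b and 1.47% to 12.6% for Tmem163. Among cells without a count of the member, 11.1% held Sla or Rprm for Cyr61 and 19.6% for Tmem163, so that Cyr61 lay above and Tmem163 below the cells that lacked it.

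**Figure D5:**
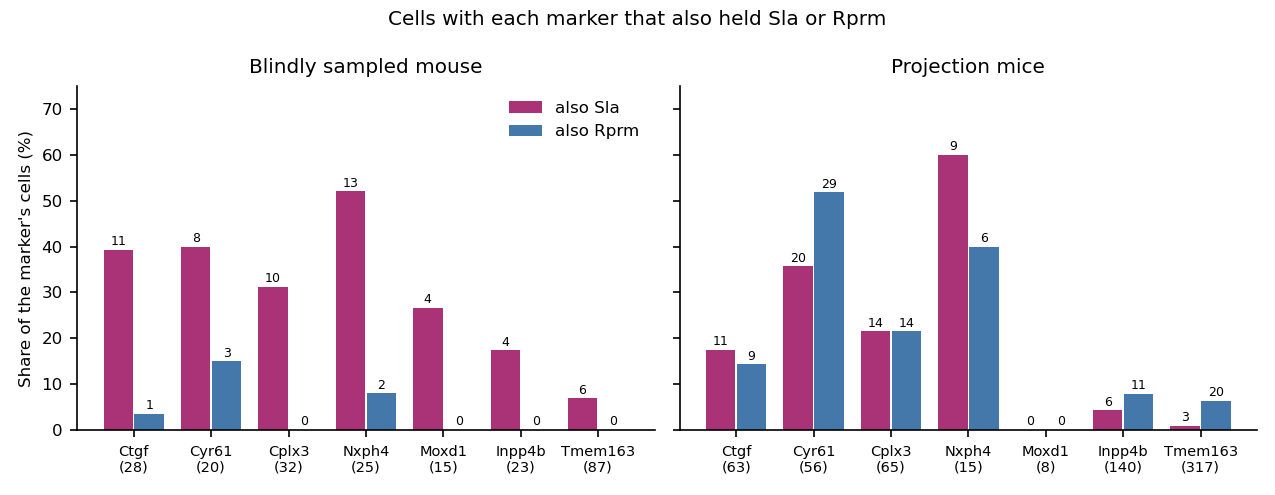
Share of the cells with each marker (vertical axis, percent, number of cells under each name) that also held Sla (purple) or Rprm (blue), in the blindly sampled mouse (left) and the 3 projection mice together (right), with the number of such cells over each bar. Nxph4 and Sla met in 13 of 25 cells on the left and 9 of 15 on the right, and no Moxd1 cell held Rprm.

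The overlap differed between Sla and Rprm. Cyr61 cells held Sla in 28 cases and Rprm in 32. Nxph4 cells held Sla in 22 and Rprm in 8, and Ctgf cells held Sla in 22 and Rprm in 10. In the blindly sampled mouse, where Rprm was found in only 8 cells and Sla in 20, 11 of 28 Ctgf cells held Sla and 1 held Rprm. Ctgf-rich cells held Sla in 13 of 33 cases and Rprm in 0. With cells thinned to 20000 counts the share of cells holding Sla or Rprm was 64.4% for Cyr61 (29 of 45), 46.2% for Nxph4 (12 of 26), 31.3% for Ctgf (15 of 48) and 2.77% for Tmem163 (8 of 289).

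The genes most like each member were ranked by the Pearson correlation of log2(CPM + 1) across the cells of a mouse, averaged over the 4 mice, among 13863 genes. These values describe cells that share plates and depth and carry no test. Most like Ctgf were Nxph4 (0.51), Cplx3 (0.38), Moxd1 (0.35), Tmem40 (0.34) and Pitpnc1 (0.34). Ctgf and Nxph4 reached 0.87 in the blindly sampled mouse, against 0.40, 0.72 and 0.06 in projection mice 1, 2 and 3. Cplx3 was most like Nxph4 (0.57), Ctgf and Pitpnc1 (0.37), and Nxph4 was most like Cplx3, Ly6g6e (0.53) and Ctgf. For Moxd1 the nearest genes were Nxph4 (0.41), Ctgf and Tmem90a (0.30).

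Cyr61 was most like Lsp1 (0.40), Ly6g6e (0.37) and Nxph3 (0.36), with Rprm (0.35) and Sla (0.34) next, and its value with its relative Ctgf was 0.19. Tmem163 was most like Synpr (0.68), Gfra1 (0.65) and Nr2f2 (0.63), at 0.44 or more in each mouse for the first 2. Inpp4b was weakly like Nrip3 (0.29), Mpped1 (0.29) and Pcp4 (0.28). By likeness, the genes nearest to Ctgf, Cplx3, Nxph4 and Moxd1 included other members, and the 3 nearest to Cyr61, Tmem163 and Inpp4b did not.

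Relatives of the members were also read. Among the CCN genes Nov fell in RSC-labeled against LEC-labeled cells, while Ctgf and Cyr61 were not called there. Of 3 complexins tested in Ctgf-rich cells against cells with neither, Cplx3 was the 1 called, and of 2 neurexophilins both Nxph3 and Nxph4 were called. Inpp4a, the relative of Inpp4b, was not called between RSC-labeled and LEC-labeled cells (log2 fold change 0.30, edgeR adjusted p = 0.42). Differences between a member and its relatives were not tested.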

How the data were processed

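Single cells of 13 plates from 4 mice were analysed. The authors deposited counts per gene and cell that were not normalized, with tables giving animal and projection label. The methods state barcode and UMI tagging and alignment with STAR. The submitters' processing notes name NCBIM37 and Seurat, and use of strand is not given in the sources used here, so Ctgf and the antisense Gm15270, and Tmem163 and Mgat5, cannot be told apart where they overlap. Spike-ins were left out. Counts were summed per mouse and label or cell group (at least 3 cells) and tested with edgeR 4.0.16 (quasi-likelihood F test after TMM and filterByExpr, with Benjamini-Hochberg adjustment over all genes tested and a threshold of 0.05), with DESeq2 1.42.0 as an alternative. The script was tested on simulated data. Ctgf, Sla and Rprm defined the cell groups and were not tested there. Clusters were made in Seurat 5.3.0 (2000 variable features, 30 dimensions, resolution 0.1) without the members.

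The members, gene lists, tests and limits were chosen with earlier results of these data known. Named genes were the members, the lists, the 5 genes most like Ctgf, the 3 most like each other member, and the 5 largest called changes in each direction, with the same sign in every mouse, between Ctgf-rich and Sla or Rprm cells.

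Sums from 1 mouse share an animal, so the numbers pair them. Across genes, their deviations from the means of the groups correlated at a median of 0.036 over 9 label pairs (-0.030 to 0.095; other pairs, -0.025) and 0.167 over 10 group pairs (0.035 to 0.405; other pairs, -0.075). The main fits had no term for the mouse and took the sums of 1 mouse as independent. Their p-values measure the spread between the sums of a group. For Ctgf-rich sums of few cells, this spread includes which cells were picked. Kept cells had 434 to 495406 counts. The alternatives tried were DESeq2, RLE factors, no filter, the mouse as a replicate block, each mouse left out, thinning, other limits for the cell groups and the members kept among the cluster genes. Anterior and posterior sections and the in situ data were not analysed here.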

Additional observations from a re-analysis of the deposited data

Results flagged for a closer look

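Values of 4 mice were looked at in 26 sets for a mouse that stood far from the other 3. In 6 of them the blindly sampled mouse did. The sets overlap and concern only Ctgf, Nxph4 and Moxd1. That this mouse held most Ctgf-rich cells was known beforehand, so the number is not set against a chance rate. They were the levels of Ctgf (42.3 CPM, with the others at 4.70 to 4.90 CPM) and Nxph4 (14.6 CPM, 0.11 to 1.17 CPM). They were also the shares of thinned cells with Ctgf (14.0%, 2.30% to 3.77%), Nxph4 (11.7%, 0.461% to 1.42%) and Moxd1 (5.85%, 0.612% to 0.943%), and the level of Nxph4 in cells with Sla or Rprm (15.7 CPM, 0.36 to 1.17 CPM). This mouse differed from the others also in sampling scheme and depth and, as inferred from the numbers of plates, in flow cell, which cannot be told apart.

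The 101 cells removed for want of Snap25 or Slc17a7 counts, which no comparison used, also held counts of the members. Moxd1 had 141 counts in 4 cells, Cyr61 51 in 6, Tmem163 26 in 10, Ctgf 14 in 2, Cplx3 14 in 2 and Inpp4b 12 in 3. Nxph4 had 3 counts, in 1 cell.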

How the results depend on the processing

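The members' log2 fold changes were recomputed in 363 combinations of member, comparison and alternative. Direction and side of the threshold were kept in 307, 25 passed only under the alternative, 13 lost the call and 18 changed sign. Sign changes concerned changes that had not been called. Without a mouse, RSC minus LEC became -0.18 for Cplx3 (up to 3.59), -0.53 for Cyr61 (up to 1.82) and -0.38 and -0.60 for Moxd1 (up to 6.95). RSC minus unlabeled became -1.96 for Cplx3 (up to 1.19, and -0.57 with the mouse as a replicate block), 0.30 for Ctgf (down to -1.05) and 0.22 and 0.77 for Nxph4 (0.012 with DESeq2). Inpp4b in Ctgf-rich cells against cells with neither became 0.00103 with RLE factors, 0.60 and 0.95 without a mouse (down to -11.04) and 0.57 without Synpr-rich cells. Against Sla or Rprm cells it became -0.80 with the block and -0.07 and -10.7 without a mouse (up to 1.07), and Cyr61 became -0.93 with thinned cells.

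Counts of genes called moved widely. DESeq2 called 1145 (RSC against LEC), 663 (RSC against unlabeled), 114 (LEC against unlabeled), 870 (Ctgf-rich against neither), 120 (Sla or Rprm against neither) and 561 (Ctgf-rich against Sla or Rprm), against 552, 228, 0, 159, 15 and 39. In the same order, thinning to 20000 counts gave 837, 463, 49, 65, 87 and 1. Leaving out 1 mouse gave 59 to 391, 8 to 47, 0 to 2, 1 to 564, 2 in every case, and 0 to 429. RSC against LEC gave 63 without projection mouse 2 and 59 without projection mouse 3, and RSC against unlabeled 47, 8 and 33 without mice 1, 2 and 3. Ctgf-rich against neither gave 564 without the blindly sampled mouse, 24 and 1 without projection mice 1 and 2, and against Sla or Rprm 429, 1, 0 and 81 without the blindly sampled mouse and projection mice 1, 2 and 3. Without the filter, LEC against unlabeled gave 9 and Sla or Rprm against neither 31. With the block, LEC against unlabeled gave 2 and Ctgf-rich against Sla or Rprm 6. Without plate 12, RSC against unlabeled gave 120. Ctgf-rich against neither and against Sla or Rprm gave 77 and 23 from 50 CPM, and 14 and 7 from 1 count. With at least 2 counts of Sla or Rprm the 3 group comparisons gave 102, 42 and 12, and without Synpr-rich cells 634, 42 and 270. Plate 12 and the Synpr-rich cells were chosen after seeing the data. A limit of 200 CPM was not run, as it leaves 1 mouse with a sum. Beyond the calls named in the report, the block changed no call of a member.

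The share of projection cells with Ctgf, 3.17%, was 8.15% without thinning, 1.84% at 10000 counts and 1.32% with at least 2 counts. At resolution 0.2 no further cluster formed without the members, and a further cluster of 30 cells formed with them. Few cells and 3 mice per label limit the precision, and Moxd1 and Nxph4 are close to the limit of detection in the projection mice.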
